A study of Mus musculus with 80 samples.

Results

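The tubulin gene family was examined in RXR ChIP-Seq peak lists of mouse liver. The 10 genes were Tuba1a, Tuba1b, Tuba1c and Tuba4a, which encode α-tubulins, and Tubb2a, Tubb2b, Tubb3, Tubb4a, Tubb4b and Tubb5, which encode β-tubulins. They were 10 of 21938 protein-coding genes of GENCODE M21 (mm10). They were chosen as a family whose peaks in these same lists were already known, so their calls and fold enrichments in the 8 groups are given as a description and not as support for any statement. Every peak overlapping a gene body by at least 1 bp was taken, which gave 814 intervals of 589904 in the series.

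α- and β-Tubulin pair into a dimer, and the dimers assemble into microtubules, the hollow filaments that carry vesicles in the cell, form the mitotic spindle and give neurons their axons. Mammals make several isotypes of each from separate genes. The proteins are closely alike along most of their length and differ mainly in an acidic tail at the C terminus, which carries most of the chemical modifications of tubulin and contacts motor proteins. Tuba1b, Tuba1c, Tuba4a, Tubb4b and Tubb5 are made in many tissues, although Tuba4a is also abundant in brain. Tuba1a, Tubb2a, Tubb2b, Tubb3 and Tubb4a are most abundant in the nervous system, and Tubb3 is a widely used marker of neurons. RXR is a nuclear receptor that binds DNA as a partner of PPARγ and other receptors, and the PPARγ:RXR pair recognizes 2 copies of AGGTCA separated by 1 base (a DR1 element).

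The 40 livers came from male mice aged 5 months after 12 weeks of diet, 5 separate animals in each of 8 groups. WT mice were C57BL6/J. KO mice carried loxP sites in the gene for PPARγ and Cre recombinase under the albumin promoter, which is active in hepatocytes, so that other cells of the KO liver can still make PPARγ. Each genotype was given a low-fat control diet (Control), that diet with pioglitazone, a drug that activates PPARγ (Pio), a high-fat diet (HFD) or the high-fat diet with pioglitazone (HFD-Pio). The values are fold enrichments, the ratio of ChIP tags at the summit of a peak to the local background estimated from the same liver's input, as the authors' caller MACS2 gave them. For each gene and liver the strongest peak is given, and a liver without a peak has no value.

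WT and KO libraries differed in more than genotype. The caller used a p cutoff of 0.001 for the 20 WT libraries and a q cutoff of 0.05 for the 20 KO libraries. The libraries held 2.04 to 4.26 megatags after removal of repeated positions in WT and 0.628 to 1.06 megatags in KO, and 579 to 33705 peaks in WT and 7630 to 30437 in KO. The labels name no antibody for 15 KO samples (Pio, HFD and HFD-Pio), although their titles name RXR. In 6 libraries of WT mice given Pio, the fragment length estimated by the caller was 45 to 48 bp, about the length of a tag, against 119 to 292 bp elsewhere. Genotype, cutoff and depth cannot be told apart in any comparison of WT with KO, nor can the antibody label in Pio, HFD and HFD-Pio. In Control both genotypes have the RXR label. A peak list does not measure the transcript of the targeted gene, so the knockout was not checked here. A peak overlapped Pparg in 9 of 20 WT and 1 of 20 KO livers.

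The members lie on 6 chromosomes, and each main transcript has 4 exons. All positions are on mm10 (GRCm38). Tuba1b (chr15:98931425-98934565, minus strand), Tuba1a (chr15:98949837-98953703, minus strand) and Tuba1c (chr15:99029891-99038110, plus strand) are neighbours on chromosome 15. Tubb2a (chr13:34074274-34078007, minus strand) and Tubb2b (chr13:34126748-34130466, minus strand) are neighbours on chromosome 13. Tuba4a is at chr1:75214228-75219865 on the minus strand and Tubb4b at chr2:25222160-25224702 on the minus strand. Tubb3 is at chr8:123411424-123422015 on the plus strand. Tubb5 (chr17:35833921-35838306) and Tubb4a (chr17:57080066-57087782) are both on the minus strand of chromosome 17. Other annotated genes overlap some of them, so a peak there cannot be assigned to 1 gene. These are Gm49450 at Tuba1a and Tuba1b, Gm41396 at Tuba1b, Stk16 at Tuba4a, the readthrough gene Gm20388 at Tubb3, and Fam166a at Tubb4b.

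Most summits lay in protein-coding sequence. The following 61 bases surround the median position of the strongest summit of Tubb3 and Tubb5 in the WT livers given Pio. They are read 5′ to 3′ on the coding strand of GRCm38, and capitals mark the stretch nearest to a DR1 element on either strand. They are shown because the strongest peaks of these genes lay here, inside the coding sequence.
Tubb3, WT with Pio (chr8:123421498-123421558, plus strand): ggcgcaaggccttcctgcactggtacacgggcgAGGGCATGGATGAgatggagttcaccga
Tubb5, WT with Pio (chr17:35835032-35835092, minus strand): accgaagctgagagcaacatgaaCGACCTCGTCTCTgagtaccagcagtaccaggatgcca
The stretches in capitals differ from the DR1 element at 4 bases in Tubb3 and at 5 in Tubb5.

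The corresponding bases in KO livers are shown for 3 β-tubulins with tall peaks.
Tubb3, KO (chr8:123420882-123420942, plus strand): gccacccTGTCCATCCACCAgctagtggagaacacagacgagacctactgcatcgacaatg
Tubb4a, KO (chr17:57081282-57081342, minus strand): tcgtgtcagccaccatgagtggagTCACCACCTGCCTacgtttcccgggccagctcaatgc
Tubb5, KO (chr17:35835376-35835436, minus strand): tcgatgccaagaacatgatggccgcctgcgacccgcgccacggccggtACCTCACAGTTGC
Here the nearest stretch differed from the element at 5 bases in each of them.

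The last 60 bases of each coding sequence encode the acidic tail by which the isotypes differ, and the capitals mark the stop codon. They are shown for 7 members because an interval that reaches them lies on sequence that differs between most isotypes.
Tuba4a (chr1:75215622-75215681, minus strand): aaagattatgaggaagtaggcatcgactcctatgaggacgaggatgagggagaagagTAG
Tubb2a (chr13:34074468-34074527, minus strand): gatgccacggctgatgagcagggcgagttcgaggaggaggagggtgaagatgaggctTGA
Tubb2b (chr13:34127471-34127530, minus strand): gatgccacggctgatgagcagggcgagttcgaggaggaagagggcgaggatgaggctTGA
Tubb3 (chr8:123421623-123421682, plus strand): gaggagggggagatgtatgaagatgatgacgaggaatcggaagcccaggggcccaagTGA
Tubb4a (chr17:57080690-57080749, minus strand): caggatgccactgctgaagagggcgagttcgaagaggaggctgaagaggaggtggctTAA
Tubb4b (chr2:25222308-25222367, minus strand): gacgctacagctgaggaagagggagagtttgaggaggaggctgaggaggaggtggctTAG
Tubb5 (chr17:35834982-35835041, minus strand): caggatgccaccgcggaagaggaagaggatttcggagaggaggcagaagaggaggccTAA
Tubb2a and Tubb2b are nearly the same here, whereas Tubb3 is unlike the other β-tubulins. In KO livers an interval covered the whole of this stretch in 20 of 20 livers for Tuba1a, Tubb2a, Tubb2b, Tubb3, Tubb4a and Tubb5. It covered the whole stretch in 8 livers for Tuba1b, 9 for Tubb4b, 4 for Tuba1c and 1 for Tuba4a, and overlapped part or all of it in 8, 14, 9 and 5. In the 10 WT livers given Pio the whole stretch was covered in 3 livers for Tubb5, in 2 for Tubb3, in 1 each for Tuba1a, Tuba1c and Tubb2a, and in 0 for the other 5 members. Part or all of it was overlapped there in 7 livers for Tubb5 and Tuba1c, in 6 for Tuba1a and Tuba1b, in 5 for Tubb2a, in 3 for Tubb3, in 2 for Tuba4a, Tubb2b and Tubb4b and in 1 for Tubb4a.

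No member had a peak in any of the 10 WT livers without Pio, whether on the control diet or on HFD. All 10 members had a peak in at least 3 of 5 livers of WT Pio, and 8 did in WT HFD-Pio. In KO livers peaks were present under every treatment, with 7 to 10 members called in each liver. Over all protein-coding genes, 2.21% had a peak in at least 3 of 5 livers in WT Control and 0.515% in WT HFD. The share was 12.7% in WT Pio, 10% in WT HFD-Pio and 24.3 to 29% in the KO groups. Without Pio, most genes in WT livers thus lacked such a peak, as the members did. The isotypes also stood in a different order. The brain-enriched genes and Tubb5 were tallest in KO livers, whereas the α-tubulins and Tubb5 led in WT livers given Pio.

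**Figure D1:**
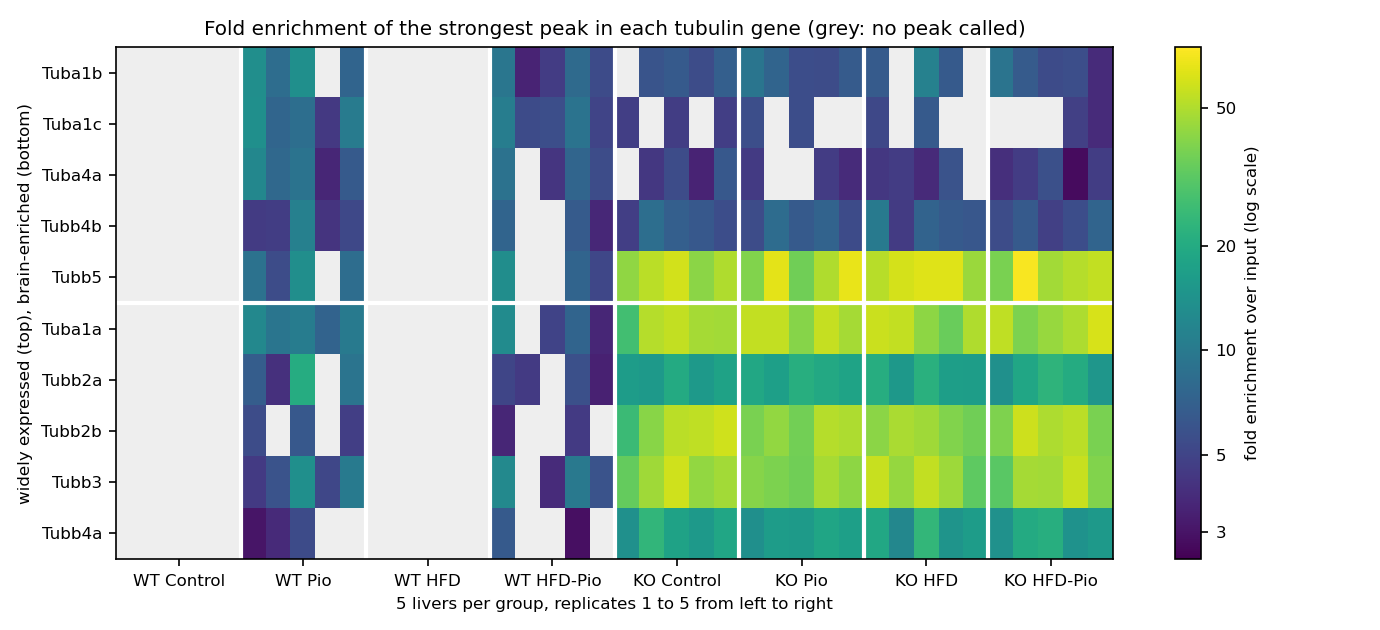
Fold enrichment of the strongest peak of each tubulin gene (rows) in each of the 40 livers (columns, grouped by genotype and treatment), with grey cells where no peak was called and a log color scale. The WT Control and WT HFD columns are empty, and Tubb5, Tuba1a, Tubb3 and Tubb2b have medians of 44.5 to 51.6 over the 20 KO livers.

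Tubb3, the neuronal β-tubulin, had lower fold enrichments in WT than in KO livers, which also differ in cutoff and depth. In WT Pio its fold enrichments were 4.47, 5.99, 13.5, 5.13 and 10.2 in replicates 1 to 5. In WT HFD-Pio replicates 1, 3, 4 and 5 had 12.4, 3.81, 9.92 and 6.01, and replicate 2 had no peak. These WT values overlapped each other between the diets. In KO Control the values were 33.6, 46.3, 58.4, 43.4 and 46.9, and in KO Pio they were 40.2, 38.4, 36.0, 48.2 and 41.9. The KO HFD livers had 56.7, 43.9, 54.7, 45.3 and 32.2, and the KO HFD-Pio livers had 31.3, 47.6, 47.1, 56.4 and 39.6. Each KO liver therefore stood above each WT liver, and the KO treatments overlapped. For how many other genes the ranges were apart was not counted. In the permutation test described below, 38.1% of the genes differed in either direction between WT Pio and KO Pio.

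Tubb5, a widely expressed β-tubulin that is plentiful in dividing cells, gave the highest median of the family in KO livers, 51.6. WT Pio replicates 1, 2, 3 and 5 had 8.98, 5.48, 13.5 and 8.45, and replicate 4 had no peak. In WT HFD-Pio only replicates 1, 4 and 5 had a peak, at 13.3, 7.53 and 5.15. The 7 WT values thus overlapped those of Tubb3. In KO Control Tubb5 had 42.8, 52.8, 59.7, 41.8 and 50.2, and in KO Pio 39.6, 64.9, 36.0, 49.8 and 66.9. In KO HFD it had 51.7, 60.5, 63.2, 63.6 and 44.8, and in KO HFD-Pio 37.7, 72.4, 46.9, 51.5 and 55.2. Tubb5 was thus as tall as the brain-enriched isotypes, although it is made in many tissues.

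Tuba1a, the main α-tubulin of developing neurons, was next in KO livers. Its WT Pio values were 12.3, 9.36, 10.4, 7.42 and 10.2, and those of WT HFD-Pio were 12.9, 4.93, 7.53 and 3.6 in replicates 1, 3, 4 and 5, with no peak in replicate 2. In KO Control it had 26.6, 51.4, 55.1, 47.1 and 47.0, so that replicate 1 stood apart from the other 4. The mean of that group was 45.5 ± 11.1 (SD, n = 5). KO Pio livers averaged 50.7 ± 6.70, KO HFD livers 47.7 ± 9.41 and KO HFD-Pio livers 49.3 ± 8.59 (SD, n = 5), so that the 4 groups overlapped.

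Tubb2b, a β-tubulin of the developing brain, was as tall as Tubb3 in KO livers and among the lowest in WT livers. KO Control livers averaged 46.3 ± 13.3, KO Pio livers 43.5 ± 6.67, KO HFD livers 42.3 ± 5.25 and KO HFD-Pio livers 47.4 ± 8.70 (SD, n = 5). In WT livers it had a peak in 5 of 10 given Pio, at 5.48, 6.38 and 4.69 in replicates 1, 3 and 5 of Pio and at 3.58 and 4.48 in replicates 1 and 4 of HFD-Pio. Tubb2a, its neighbour, had lower KO means of 17.1 ± 1.90, 19 ± 1.56, 18.3 ± 2.79 and 18.1 ± 3.78 in the same order of groups. Within each of 20 KO livers Tubb2b exceeded Tubb2a, by a median of 2.58-fold, whereas it was below Tubb2a in each of the 5 WT livers with both, at a median ratio of 0.701. Tubb4a, a β-tubulin of neurons and of the cells that make myelin, had KO means of 17.8 ± 3.67, 16.3 ± 1.80, 17.2 ± 4.51 and 16.9 ± 3.37. Its 5 WT peaks had a median of 3.74.

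The widely expressed α-tubulins were far lower in KO livers than Tuba1a. Tuba1b had KO Pio values of 9.35, 7.52, 5.62, 5.50 and 6.66 and a median of 6.57 over the 17 KO livers with a peak. In WT Pio it had 13.5, 8.42, 13.7 and 7.49 in replicates 1, 2, 3 and 5 and no peak in replicate 4, and in WT HFD-Pio it had 9.52, 3.49, 4.60, 8.12 and 5.40. Tuba1b was thus about as tall in the WT livers as in the KO livers. Tuba1c, its close copy, was called in 10 of 10 WT livers given Pio. Its values were 13.7, 7.54, 8.56, 4.37 and 10.3 in WT Pio and 10.5, 5.43, 5.64, 9.15 and 5.03 in WT HFD-Pio. In KO livers it was called in 9 of 20, at 3.80 to 6.53, which overlapped the WT values. Tuba4a had medians of 7.62 over 9 WT livers and 4.51 over 16 KO livers. Tubb4b, a widely expressed β-tubulin, had a peak in all 20 KO livers at a median of 6.46 and in 8 of 10 WT livers given Pio at a median of 4.94.

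In order of their medians over KO livers, Tubb5, Tuba1a, Tubb3 and Tubb2b came first with overlapping ranges, then Tubb2a and Tubb4a, which overlapped each other and none of the first 4, and then Tuba1b, Tubb4b, Tuba1c and Tuba4a, which overlapped. Among genes with a peak in the same KO liver, the first 4 had median percentiles of 99.90 to 99.95. Tubb2a and Tubb4a stood at 98.4 and 98, Tubb4b and Tuba1b at 77.8 and 77.6, and Tuba1c and Tuba4a at 57.7 and 44.5. In WT livers given Pio the order was Tuba1a (9.36), Tubb5 (8.45), Tuba1b (8.12), Tuba1c (8.05), Tuba4a (7.62), Tubb3 (6.01), Tubb2a (5.41), Tubb4b (4.94), Tubb2b (4.69) and Tubb4a (3.74), and neighbours in this order overlapped. The WT percentiles of the members ran from 62.6 for Tubb2b to 91.4 for Tuba1a. Pileups, the numbers of tags at the summit, were 68 to 107 for Tubb5 and 36 to 78 for Tuba1a in KO livers, against 3 to 11 for Tuba1b and 2 to 6 for Tuba4a, so that the low values rest on few tags.

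Brain-enriched isotypes made up a larger share of the summed fold enrichment of the 10 genes in KO livers than in WT livers given Pio. The share was 64.6 to 75.5% in the 20 KO livers, with a median of 71.5%, and 33.5 to 50.8% in the 10 WT livers, with a median of 42.1%. The ranges did not overlap. In the 6 WT libraries with a short fragment estimate the share was 34.5 to 50.2%, and in the other 4 it was 33.5 to 50.8%. Ratios of 2 isotypes within 1 liver, taken where both had a peak, also differed between the genotypes. Cutoff and depth differ between the genotypes too, and their part in these ratios was not tested. The ratio of Tubb3 to Tuba1b had a median of 7.22 in the 17 KO livers with both (range 3.38 to 10.4) and of 1.05 in the 8 WT livers (range 0.332 to 1.37). Tuba1a exceeded Tuba4a by a median of 12.0-fold in KO and 1.17-fold in WT livers. Tubb5, which is not brain-enriched, exceeded Tubb4b by a median of 8.15-fold in KO and 1.41-fold in WT livers, so that the split does not follow the classes throughout. The tallest member was Tubb5 in 9, Tuba1a in 7, Tubb2b in 3 and Tubb3 in 1 of the KO livers. In the WT livers it was Tuba1c in 4, Tuba1a in 2, Tubb3 in 2, Tubb5 in 1 and Tubb2a in 1.

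**Figure D2:**
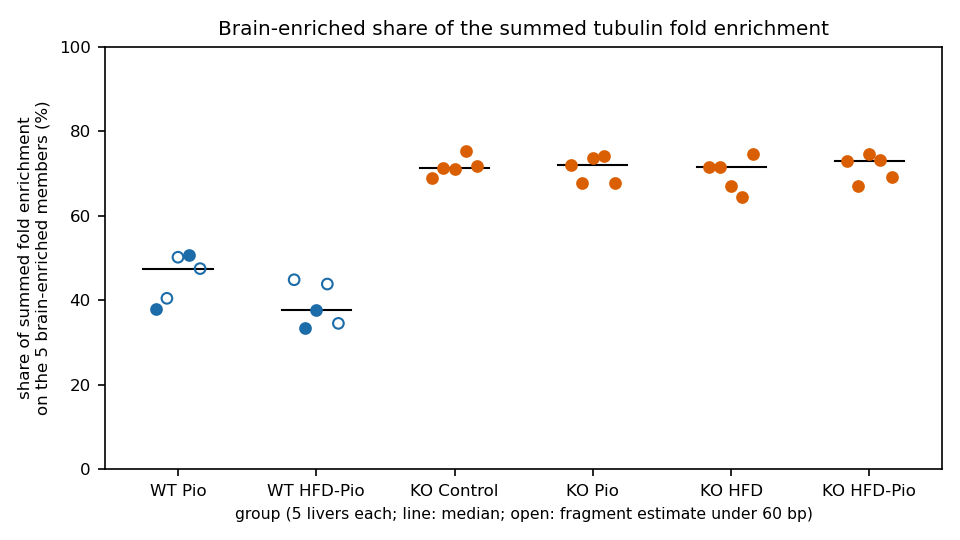
Share of the summed fold enrichment of the 10 tubulin genes that falls on the 5 brain-enriched ones, in percent, with 1 point per liver, a line at the median of each group and open points for libraries with a short fragment estimate. The 10 WT points lie between 33.5 and 50.8% and the 20 KO points between 64.6 and 75.5%. The WT points are uncertain, since Tuba1a, Tuba1b and Tuba1c fall in different classes and share most of their coding sequence.

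Whether Pio changed the calls was compared in each genotype and diet over all genes with a peak in at least 3 of the 10 livers. In WT Pio against WT Control, 10 members had a peak in at least 3 of 5 livers against 0 of 5, as did 42.0% of 3921 genes tested. A peak in 5 of 5 against 0 of 5 was seen for Tuba1a, Tuba1c, Tuba4a, Tubb3 and Tubb4b, and for 6.99% of the genes. By two-sided Fisher's exact test with Benjamini-Hochberg adjustment over all genes, 0 members and 0% of the genes passed, and these 5 had an adjusted p of 0.114. This was the smallest adjusted p of any gene. A call in 5 of 5 against 0 of 5 livers gives the smallest p this test can reach. The lack of a pass therefore says nothing about these members. At an unadjusted p under 0.05 there were 8 members and 28.7% of the genes. WT Pio replicate 4 had a peak at 5 members and 9 or 10 were called in the others. Without that library 8 members passed (adjusted p of 0.0297 by the Fisher test), beside 26.7% of the genes. That library stands out by the calls under test, so this count is only a description. With each liver left out in turn, 0 to 8 members passed. With peaks on exons alone, the 5 members above passed at an adjusted p of 0.0478, beside 16.6% of 1469 genes.

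On HFD the pattern was similar. In WT HFD-Pio against WT HFD, 8 members had a peak in at least 3 of 5 livers against 0 of 5, as did 65.3% of 2574 genes tested. Tuba1b and Tuba1c were called in 5 of 5 livers against 0 of 5 (7.54% of the genes) and had an adjusted Fisher p of 0.105. This was again the smallest of any gene and came from the most extreme calls possible. Tubb2b and Tubb4a, called in 2 of 5 livers, were too rarely called to be tested. Of the 8 members tested 0 passed, as did 0% of the genes, and 6 members and 24% of the genes had an unadjusted p under 0.05. Without WT HFD-Pio replicate 2, in which 3 members were called, 5 passed at an adjusted Fisher p of 0.0446, beside 17.8% of 2477 genes. This library too stands out by the calls under test, and 0 to 5 members passed with each liver left out. Between the diets, 0 of 10 members passed in WT HFD-Pio against WT Pio, adjusted or not (0.2% of 4996 genes at the unadjusted threshold), and in WT HFD against WT Control no member could be tested. The 6 libraries with a short fragment estimate are all of WT livers given Pio. They held 8 to 10 members and 11132 to 33705 peaks each, and the other 4 held 3 to 10 members and 1905 to 6115 peaks. Without these 6 libraries no member was called often enough to be tested in Pio against Control or HFD-Pio against HFD. Their part in these comparisons was not tested.

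In KO livers neither Pio nor diet was followed by a change that passed a test. By the Fisher test 0 members passed in Pio against Control, in HFD-Pio against HFD, in HFD against Control and in HFD-Pio against Pio. Also, 0 had an unadjusted p under 0.05 (backgrounds of 1.34%, 0.567%, 0.35% and 0.963% at that unadjusted threshold). Tuba1a, Tubb2a, Tubb2b, Tubb3, Tubb4a, Tubb4b and Tubb5 had a peak in every KO liver. For them the Fisher test therefore had no difference in calls to test. The height of the peaks was compared with limma on log2 fold enrichment, centred on each library, for genes with a peak in all 10 livers. In Pio against Control 0 of 7 members passed, against 0.589% of 2207 genes, and their log2 differences ran from -0.24 to 0.096. Tubb3 had the largest, -0.24 ± 0.11 (SE), with an unadjusted limma p of 0.046 and an adjusted p of 0.744. In the other comparisons 0% of the genes passed. The largest member differences were 0.20 ± 0.14 (SE) for Tubb2b in HFD-Pio against HFD, 0.15 ± 0.12 for Tubb5 in HFD against Control and 0.22 ± 0.14 for Tubb2b in HFD-Pio against Pio, with adjusted limma p of 0.98, 0.99 and 0.996. These 4 comparisons share groups, so they are not independent of each other.

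WT and KO livers were compared under each treatment as a description, since these calls were known when the genes were chosen. In WT Control against KO Control, 7 of 10 members were called in fewer WT livers at an adjusted Fisher p of 0.0296, namely Tuba1a, Tubb2a, Tubb2b, Tubb3, Tubb4a, Tubb4b and Tubb5, beside 26.7% of 6107 genes. In WT HFD against KO HFD 7 of the 9 tested passed in that direction at 0.0201, beside 39.3% of 5890 genes. With Pio, 0 of 10 members passed on either diet, beside 17.3% of 8206 genes in Pio and 17.2% of 7797 in HFD-Pio. A value that joins calls and heights still differed there, although cutoff and depth also differ between the genotypes. On log2 fold enrichment, with livers without a peak at 0, an exact two-sided permutation test over all genes called Tuba1a, Tubb2b, Tubb3, Tubb4a and Tubb5 lower in WT Pio than in KO Pio (adjusted p = 0.0227), beside 38.1% of the genes in either direction. In HFD-Pio it called these 5 and Tubb2a lower and Tuba1c higher in WT than in KO livers (adjusted p = 0.0245), beside 35% of the genes. Tuba1c had a peak in 5 of 5 WT HFD-Pio and 2 of 5 KO HFD-Pio livers. Tubb2b and Tubb4a each had one in 2 of 5 WT HFD-Pio livers. The permutation test therefore does not separate the height of a peak from its presence.

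The peaks followed the exons. Of 799 summits in KO livers, 627 were in coding sequence, 29 in 5′ UTRs, 110 in 3′ UTRs and 33 in introns of the main transcript. Of these 33, 1 lay in an exon of another transcript, so that 96.0% of the 799 were on an exon of some transcript. Of 261 summits in WT livers given Pio, 259 were in coding sequence and 2 in introns, with none in a UTR. Exons make up 38.8% of the gene bodies. Over all protein-coding genes the share of gene-body summits on exons was 77.4 to 91.9% in KO livers, 19.9 to 63.5% in WT livers given Pio and 3.28 to 16.1% in WT livers without Pio, so a high exon share was not confined to tubulins. Coding sequence held 81.9% of the 766 exonic member summits in KO livers and 100% of the 259 in WT livers, against 54.1 to 61.2% and 68.2 to 81.5% per liver for all genes, and it makes up 65.4% of the members' exon bases. Intervals were 299 bp wide at the median in KO and 131 bp in WT livers.

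Exons were covered more often than introns. The midpoint of an exon was inside an interval in 45.6% of 800 pairs of a KO liver and an exon, and the midpoint of an intron in 9% of 600. In WT livers given Pio the values were 21.8% of 400 and 1% of 300. In Tubb3, exon 2 (chr8:123418093-123418201, 109 bp) was covered at its midpoint in 20 of 20 KO livers, exon 3 (chr8:123418940-123419050, 111 bp) in 14 and exon 4 (chr8:123420607-123422015, 1409 bp) in 20, while introns 1 to 3, of 6430, 738 and 1556 bp, were covered in 0. Exons 2 and 3 of Tuba1a (chr15:98951469-98951691 and chr15:98951188-98951336) were covered in 20 of 20, as was the midpoint of intron 2 between them, and intron 3 was covered in 9. The midpoint of intron 3 of Tubb5 was also covered in 20 of 20 KO livers. In Tuba1b exons 1 to 3, and in Tuba1c all 4 exons, were covered at their midpoint in 0 KO livers. A midpoint can miss the peaks of a long last exon. For exon 4 of Tuba1a and of Tubb2a it was also covered in 0 KO livers, although 20 of 20 had a summit in that exon. Exon 4 of Tuba1c held a summit in 9 KO livers. Of the 35 summits in introns, 28 were within 50 bp of an exon, and 18 of these were in intron 1 of Tuba1a. The strongest summit of Tubb3, Tubb4a and Tubb5 was in the last exon in 20 of 20 KO livers, and that of Tuba1a in 18, and it lay in the 3′ UTR in 17. That of Tubb2a was in the last exon in 15 livers and that of Tubb2b in 8, with its median position at exon 1.

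**Figure D3:**
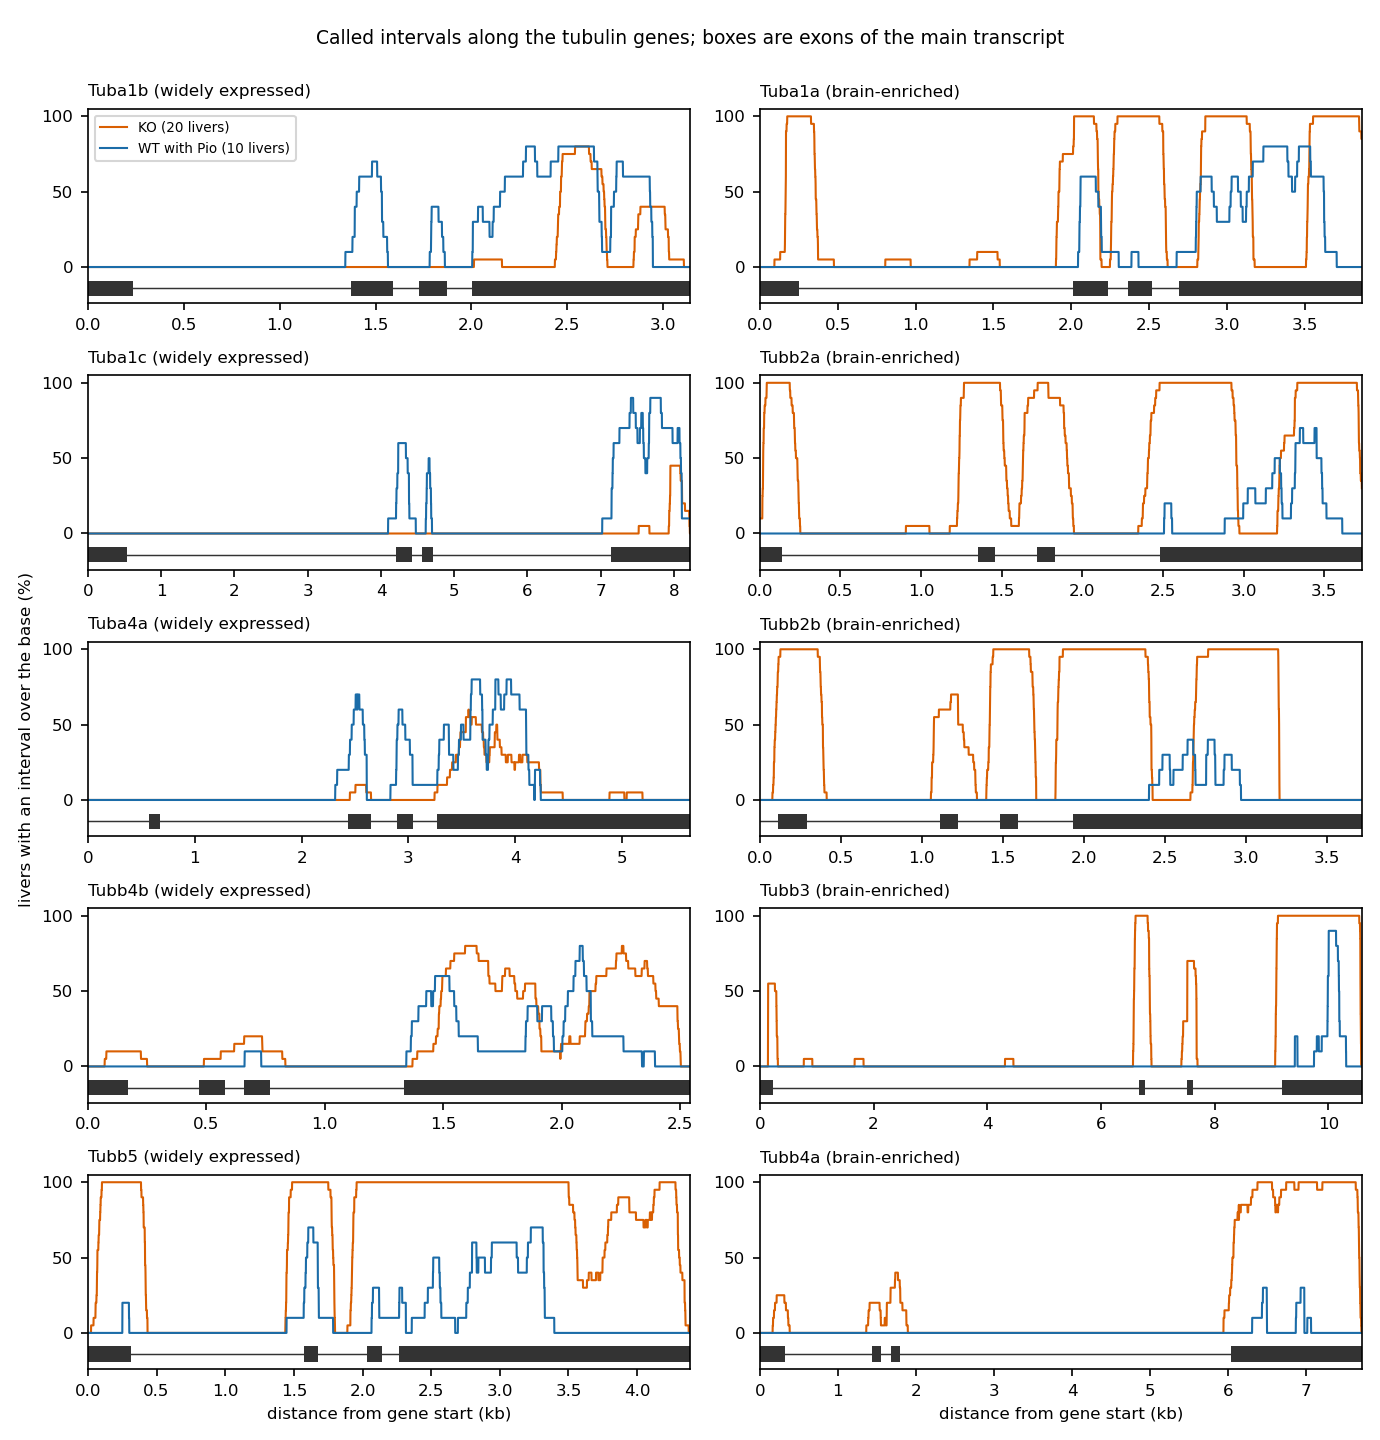
Share of livers with an interval over each position of the tubulin genes, in percent, against the distance from the gene start in kb, with exons drawn as boxes under each panel and separate lines for KO livers (n = 20) and WT livers given Pio (n = 10). In Tubb3 the KO line is over exons 2 and 4 in 20 of 20 livers and over the midpoints of the introns in 0, whereas intron 2 of Tuba1a and intron 3 of Tubb5 are covered in 20 of 20.

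How far a read of 49 bases, the tag length, can be placed in these genes differs between isotypes, since related genes share long identical stretches. Over the coding bases before the tail, Tuba1b and Tuba1c were 99.4% identical, Tuba1a and Tuba1c 98.4% and Tuba1a and Tuba1b 98.3%. Tubb2a and Tubb2b were 96.6% identical with a longest shared run of 551 bases, and the least alike β-tubulins 82.8%. Of the 49-base stretches in coding sequence, those found once in the genome made up 5.31% in Tuba1b, 7.42% in Tuba1c and 13.4% in Tuba1a, then 29.0% in Tubb2b, 31.8% in Tubb2a and 36.9% in Tubb4b. They made up 92.2% in Tubb3, 97.2% in Tuba4a, 99.6% in Tubb4a and 99.8% in Tubb5. The UTRs of Tuba1a and Tuba1c were 93.3% and 93.2% unique. Values of Tubb3, Tuba4a, Tubb4a and Tubb5 rest mostly on sequence that can be placed, and those of the Tuba1 and Tubb2 genes and of Tubb4b are uncertain where a read matches several genes. Whether the authors kept such reads is not given in the sources used here.

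Over the 10 genes together, intervals covered more of the unique bases in KO livers and more of the shared bases in WT livers. Of the 5243 exon bases that no unique 49-base stretch overlaps, a median of 28.4% (range 18.2 to 32.6%) was inside an interval in KO livers, against 56.8% (51.4 to 65.2%) of the 11280 bases at which all stretches are unique. In WT livers given Pio the medians were 47.5% (12.9 to 75.4%) and 12.3% (0.0177 to 26.5%). The shared bases were the more covered in 10 of 10 WT livers and in 0 of 20 KO livers. Tuba1a showed both patterns. In KO livers 42.0% of its shared and 61.9% of its unique bases were covered, and in WT livers 53.8% and 0.226%. Its exonic summits had no unique stretch in 4 of 82 cases in KO and in 31 of 33 in WT livers. In Tuba1c the WT coverage was 59.7% of shared and 2.51% of unique bases. In Tuba1a 93.3% of the UTR stretches and 13.4% of the coding ones are unique, and in Tuba1c 93.2% and 7.42%. WT livers given Pio had 0 summits in a UTR. Uniqueness and position in a UTR can therefore not be told apart in Tuba1a and Tuba1c. Single genes went the other way. In KO livers the shared bases were the more covered in Tuba1b (10.9 against 0.615%), Tuba1c (3.6 against 2.14%) and Tubb2b (52.3 against 48.9%), and in WT livers Tubb3 had 0% of its shared and 17.2% of its unique bases covered. Tubb5, Tuba4a and Tubb4a have no such shared bases, so their WT peaks do not rest on them.

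**Figure D4:**
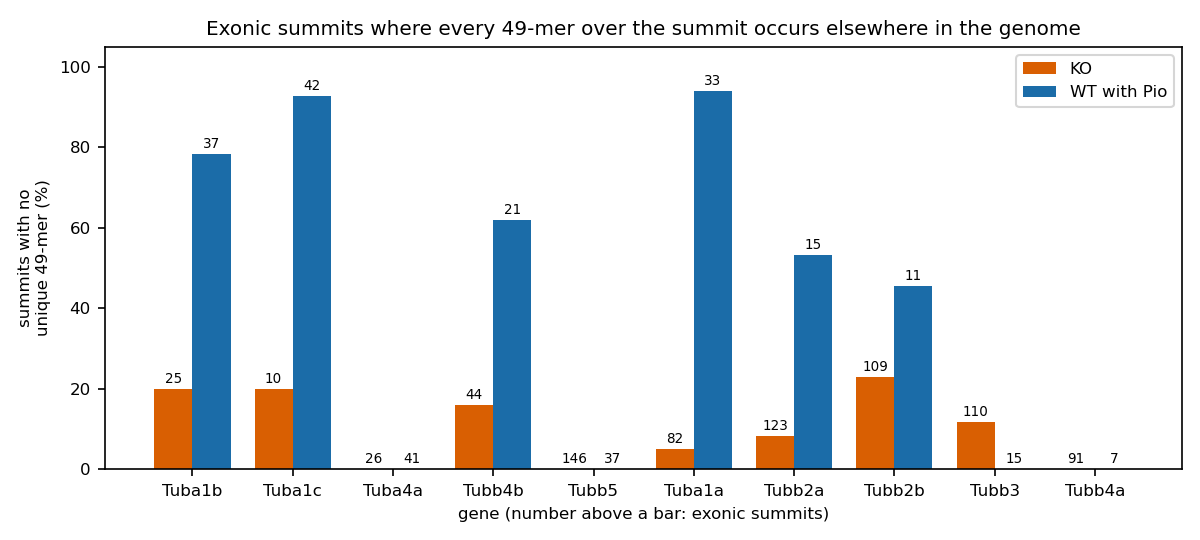
Percent of exonic summits of each tubulin gene at which all 49-base stretches over the summit occur elsewhere in the genome, for KO livers and WT livers given Pio, with the number of exonic summits above each bar. The WT bars of Tuba1a (31 of 33) and Tuba1c (39 of 42) are the tallest, and Tuba4a, Tubb4a and Tubb5 have 0 in both genotypes.

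Copies of tubulin sequence elsewhere in the genome carried peaks too. Outside the members, 15 loci held at least 100 of the members' distinct 49-base stretches, and 14 of them had a peak in some liver. None had a peak in a WT liver without Pio. The processed pseudogene Gm14150 on chromosome 2, which shares 850 stretches with Tuba1a, Tuba1b and Tuba1c, had a peak in 10 of 10 WT livers given Pio and in 20 of 20 KO livers. Gm3226 on chromosome 13 shares 1074 stretches with these genes and Gm3756 on chromosome 9 shares 862. Both had a peak in 8 of 10 WT livers and in 0 of 20 KO livers. A stretch with no annotated gene at chr6:136398448-136400093, which shares 195 stretches with Tubb3, had a peak in 1 WT and 20 KO livers. For comparison, of 13132 processed pseudogenes of any gene, 23.2% had a summit in at least 1 WT liver given Pio, 1.39% in WT livers without Pio and 12.4% in KO livers. Such copies have no introns, and a read shared by a gene and its copy cannot be assigned to either.

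DR1 elements were searched as AGGTCA, any 1 base and AGGTCA again, on both strands, with up to 2 mismatches, within 100 bp of each summit. A match was found at 0 of 261 member summits in WT livers, against 1.86 to 2.12% of all peaks in the libraries of WT mice given Pio. In KO livers 37 of 799 member summits (4.63%) had one, against 2.33 to 2.85% of all peaks. These were 20 of 95 summits of Tubb4a, 16 of 147 of Tubb5 and 1 of 45 of Tubb4b, and summits of 1 gene in different livers share the same sequence. Of the members' promoters, taken from RefSeq (GRCm38.p6) as 250 bases before to 50 after the start, 9 matched and 0 held a match, against 3.86% of 32851 promoters of the same length. A KO peak overlapped the promoter in 20 of 20 livers for Tuba1a and Tubb2a, in 11 for Tubb3, in 5 for Tubb4a, in 2 for Tubb5 and in 0 for Tuba1b, Tuba1c, Tuba4a and Tubb4b. These windows reach into exon 1 and any overlap counted, so such a peak need not lie before the gene start. The midpoint of exon 1 was covered in 1 KO liver in Tuba1a and in 20 in Tubb2a.

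Other genes of the microtubule system were described in the same way, by how many had a peak in at least 3 of 5 livers of a group. Over all protein-coding genes the WT groups had 2.21% (Control), 0.515% (HFD), 12.7% (Pio) and 10% (HFD-Pio), and the KO groups had 24.3 to 29%. Of 10 other tubulins, 2 were called in WT Pio and in WT HFD-Pio and 1 to 3 in the KO groups, the most frequent being Tubb6 (median 6.24 in 19 KO livers), Tubg2 and Tubg1, the last 2 being γ-tubulins of the spindle poles. Of 18 genes for tubulin folding, 9 were called in WT Pio, 7 in WT HFD-Pio and 14 to 16 in the KO groups. They were led by Cct7 (8.82 in KO livers), Cct3 and Cct5, subunits of the chaperonin that folds tubulin and actin. Of 18 enzymes that modify tubulin, 2 were called in WT Control and 2 in WT HFD. In WT Pio 3 were called, in WT HFD-Pio 5 and in the KO groups 9 to 13. Agbl4, Agbl5 and Agtpbp1, which trim glutamates from tubulin, had a peak in the most livers. Agbl4 had one in 6 WT livers without Pio, unlike the tubulin members. Of 25 genes that bind microtubules, 8 were called in WT Pio, 4 in WT HFD-Pio and 23 or 24 in the KO groups. Map2, a protein of dendrites, had a median of 16.2 in KO livers and Map4, its widely expressed relative, 9.34.

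Markers of other tissues also had peaks in some of these groups. Of 17 neuron markers, 16 were called in each KO group, 2 in WT Pio and WT HFD-Pio and 0 in WT Control and WT HFD. Their summed fold enrichment was 98.2 to 178 in KO livers, 3.7 to 32.8 in WT livers given Pio and 0 to 19.4 in WT livers without. Syt1, Snap25 and Rbfox3 had a peak in the most libraries, with medians of 7.53, 8.98 and 6.09 in KO livers. The tallest of the list were Gap43, a protein of growing axons, and Uchl1, an abundant neuronal enzyme. Their medians were 25 and 23.3, each in 20 of 20 KO livers, and Nefh was called in 1. Of 12 markers of myelin and astrocytes, 4 were called in each KO group and 1 in WT Pio and WT HFD-Pio. Of 9 markers of intestinal epithelium, 4 were called in WT Pio and WT HFD-Pio and 0 in the KO groups, with Cdh17, Krt20 and Lgals4 in 7 of 10 WT livers given Pio. Of 8 smooth muscle markers, 4 were called in WT Pio, 3 in WT HFD-Pio and 2 to 5 in the KO groups. Of 18 hepatocyte markers only Ttr was called in the KO groups, at a median of 20.4 in 20 of 20 livers, and 0 were called in the WT groups. Alb, the gene of serum albumin, had a peak in 0 of 20 KO livers. Blood markers gave 1 of 9 in WT Pio and 2 in each KO group, dividing-cell markers 1 or 2 of 7 in KO groups and 0 in WT, and testis markers 1 of 7 in WT Pio and WT HFD-Pio. The part of these in the tubulin peaks was not tested.

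**Figure D5:**
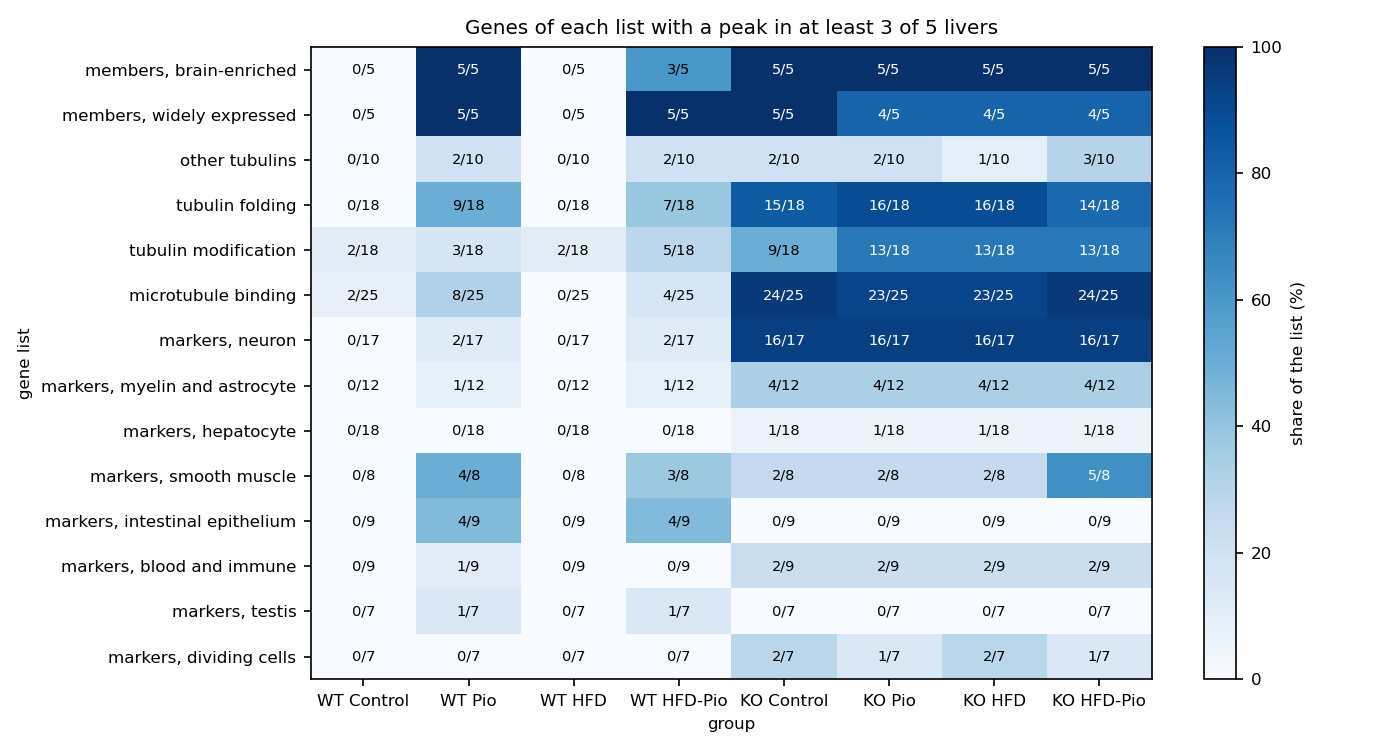
Share of the genes of each list with a peak in at least 3 of 5 livers, in percent, for each of the 8 groups, as a color with the count printed in the cell. In the KO groups 16 of 17 neuron markers and 23 or 24 of 25 microtubule-binding genes are called, and in WT Pio 9 of 18 tubulin-folding genes and 4 of 9 intestinal markers.

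The genes whose fold enrichment followed that of Tubb3 most closely over the 40 libraries, among 7094 compared, were Gm20388, which overlaps it (Spearman rho 0.964), Eif4g2 (0.963) and Ppp2r1a (0.960). For Tubb5 they were Ddx1 (0.951), Tmsb4x (0.940) and Epo (0.927). Eif4g2, a translation factor, had a median of 24.1 in KO livers and Tmsb4x, the actin-binding thymosin, 40.1. These libraries share their depth and peak cutoff within a genotype, so the coefficients are a description.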

How the data were processed

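RXR ChIP-Seq peak lists of 40 mouse livers were used, 1 per ChIP library, with groups taken from the sample labels. The authors aligned single 50-base reads to mm10 with Novoalign. Each library was set against its own input in MACS2 2.1.1.20160309, with 1 tag kept per position, and replicates were not pooled. According to the headers, WT libraries had a p cutoff of 0.001 and KO libraries a q cutoff of 0.05. The deposited values are fold enrichment (a ratio to the local input background), pileup (the signal at the summit, in tags), and −log10 p and −log10 q. Headers of the WT files say that q would be written as −1, yet the files hold q values, so the meaning of WT −log10 q is uncertain. The narrowPeak files hold the same peaks and were not used. Reads per site are not held in peak lists, so no counting interval was computed, and depth is given as kept tags.

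The members and all gene lists were taken up with earlier results of these data known. All 10 members are named. For Tubb3 and Tubb5 the 3 genes with the highest Spearman rho are named, and of each other list up to 3 genes called in the most libraries, with further list genes named after their values were seen. Peaks were assigned to GENCODE M21 gene bodies with at least 1 bp of overlap. Calls were compared by two-sided Fisher's exact tests over genes called in at least 3 of 10 livers, and log2 fold enrichment in KO livers by limma 3.58.1 (R 4.3.3) with a trend, both with Benjamini-Hochberg adjustment at 0.05. On data simulated from KO Pio against KO Control, limma recovered 91 of 100 genes changed by 1 and 100 of 100 changed by 2 on the log2 scale, of 2207. Python 3.11.15, numpy 2.4.6, pandas 2.3.3 and scipy 1.17.1 were used. Separate animals are named by the labels, and replicate numbers did not pair them. Some member sequences are not reported here.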

Additional observations from a re-analysis of the deposited data

Results flagged for a closer look

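Among 54 groups of 5 livers examined, 3 held a liver far from the other 4, and chance flags about 1 in 20 groups. Tubb4b had a fold enrichment of 10.9 in WT Pio replicate 3, against 4.19 to 5.23 in the others. Tuba1a had 26.6 in KO Control replicate 1, against 47.0 to 55.1 in the others. WT Pio replicate 4 had a peak at 5 members, against 9 to 10 in the others.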

How the results depend on the processing

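Values for single members kept their direction and side of the threshold in 1785 of 1849 alternatives, lost significance in 16, gained it in 40 and changed direction in 8. In WT Pio against WT Control the number of members passing the Fisher test was 5 with exonic peaks alone and 0 to 8 when each liver was left out, and in WT HFD-Pio against WT HFD it was 0 to 5. In WT Control against KO Control it was 0 with peaks outside exons, 0 without the filter on rarely called genes and 7 to 9 with a liver left out, and in WT HFD against KO HFD 0, 0 and 7 to 8. Against KO Pio it was 1 with peaks at −log10 q of at least 5, 2 with lists of equal length and 5 by the exact permutation test, and against KO HFD-Pio 1, 3 and 7. The difference in the share of livers reversed for Tuba1b in WT HFD-Pio against WT Pio to -0.40, for Tubb4b there to 0.20 and for Tuba4a against KO HFD-Pio to 0.20 at −log10 q of at least 5. With equal lists it reversed for Tuba1b against KO Pio to 0.60 and for Tuba4a against KO HFD-Pio to 0.80. In the permutation test on log2 fold enrichment it reversed for Tuba1b in WT HFD-Pio against WT Pio to -0.16 and for Tuba4a against KO HFD-Pio to 0.053. By pileup, Tubb5 in KO HFD against KO Control reversed to -0.054. The causes were not tested, and the settings that use −log10 q rest on WT values whose meaning is uncertain. With the replicate number as a block, limma called 0 members in each of the 4 KO comparisons, and 16 against 13 genes in KO Pio against KO Control. Livers with the same number did not deviate together (correlations from -0.072 to 0.048). Few kept tags in KO libraries limit the precision of the low peaks, and 5 against 5 livers limit the Fisher test.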
